A study of Mus musculus with 80 samples.

Results

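Ccl21b, Ccl19 and Fam205a1 are genes of mouse chromosome 4 that lie close together and were picked because their levels differed between Ces1c knockout (KO) and wild-type (WT) mice in at least 1 tissue. Their members are the probe sets whose platform annotation names exactly 1 gene and that gene is Ccl21b, Ccl19 or Fam205a1. This gave 3 of the 45037 probe sets examined and 3 of the 17097 genes named by such probe sets: 1419426_PM_s_at for Ccl21b, 1449277_PM_at for Ccl19 and 1439647_PM_at for Fam205a1. No probe set that names several genes names any of them.

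The KO mice lack Ces1c, the carboxylesterase that mouse liver secretes into the blood and that the labels call Es-1, and the study compared them with WT mice on the same C57BL/6 background. Neither genotype was treated, all animals had the same chow and light cycle, and their ages and the way the allele was made are not given in the sources used here. RNA from 5 frozen organs (brain, lung, liver, kidney and heart) was measured on 80 arrays, 4 for each genotype, sex and tissue, so 8 KO and 8 WT arrays per tissue. The arrays came from 23 numbered animals, 12 KO and 11 WT, of which 16 gave brain, heart, kidney and liver, 9 of these also gave lung, and 7 gave lung alone. The arrays are therefore of separate animals within a tissue, but not across tissues.

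The array number limits the precision of each value. On all 80 arrays the markers of the labelled organ stood above those of the other 4 organs. KO female 994 has a heart array with lung in its tissue field, and it was kept as heart by its title. In liver, Ces1c stood between 9.70 and 10.17 in 7 KO animals and between 12.11 and 12.63 in WT animals, while the library labelled KO male 952 stood at 12.04, beside the WT arrays. Without its array, KO minus WT for Ccl21b in brain moved from -2.32 to -2.12, and for Ccl19 in lung from -0.52 to -0.46.

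CCL21 and CCL19 are chemokines that bind the receptor CCR7, and they guide dendritic cells and naive T cells into lymph nodes and other lymphoid tissue. CCL21 is made by stromal cells and lymphatic endothelium, and CCL19 by stromal cells and some dendritic cells. Fam205a1 belongs to a family of genes of little known function. In mice this stretch of chromosome 4 carries repeated copies of these genes, and the number of copies is known to vary between strains.

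The gene table used here (RefSeq, GRCm38.p6) held 6 Ccl21 entries, 5 Ccl19 entries and 4 Fam205a entries. Of each family only 1 had a probe set of its own, so a member's value may include RNA of its copies. The starts of the 3 members are shown because these genes are the object of the comparison, with 250 bases before the listed start in lower case and 50 bases from it on in capitals. All are 5′ to 3′ on the gene's strand, at chr4:42172870-42173169 (+) for Ccl21b, chr4:42756316-42756615 (−) for Ccl19 and chr4:42853839-42854138 (−) for Fam205a1.
Ccl21b: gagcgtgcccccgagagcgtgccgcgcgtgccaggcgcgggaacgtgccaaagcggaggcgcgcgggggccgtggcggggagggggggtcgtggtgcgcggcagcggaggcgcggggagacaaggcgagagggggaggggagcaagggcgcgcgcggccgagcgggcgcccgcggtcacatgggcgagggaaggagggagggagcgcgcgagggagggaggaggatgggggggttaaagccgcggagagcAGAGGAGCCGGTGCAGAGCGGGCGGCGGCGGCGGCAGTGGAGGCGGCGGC
Ccl19: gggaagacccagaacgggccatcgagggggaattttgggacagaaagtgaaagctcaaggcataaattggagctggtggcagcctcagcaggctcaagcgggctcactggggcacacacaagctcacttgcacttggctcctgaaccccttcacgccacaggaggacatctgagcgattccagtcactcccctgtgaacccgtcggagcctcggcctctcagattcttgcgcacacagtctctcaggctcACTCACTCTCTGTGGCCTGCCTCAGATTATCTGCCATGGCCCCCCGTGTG
Fam205a1: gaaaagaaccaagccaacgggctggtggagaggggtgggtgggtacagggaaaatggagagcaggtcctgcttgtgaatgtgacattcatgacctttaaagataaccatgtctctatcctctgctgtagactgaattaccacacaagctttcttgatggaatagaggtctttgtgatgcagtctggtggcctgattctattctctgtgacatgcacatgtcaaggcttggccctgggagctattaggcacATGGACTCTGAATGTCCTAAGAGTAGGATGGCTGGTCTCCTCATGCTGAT
The Ccl21b window held 78.7% G and C, against a median of 52.7% over 32851 windows of the same length. The letters TATAAA were found on neither strand of the 3 windows, and on at least 1 strand in 13.6% of all windows.

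A pair of Ccl21 copies, Ccl21a at chr4:42773942-42774241 (−) and Ccl21d at chr4:41903363-41903662 (+), shows how alike the copies can be, with unmatched bases in capitals.
Ccl21a: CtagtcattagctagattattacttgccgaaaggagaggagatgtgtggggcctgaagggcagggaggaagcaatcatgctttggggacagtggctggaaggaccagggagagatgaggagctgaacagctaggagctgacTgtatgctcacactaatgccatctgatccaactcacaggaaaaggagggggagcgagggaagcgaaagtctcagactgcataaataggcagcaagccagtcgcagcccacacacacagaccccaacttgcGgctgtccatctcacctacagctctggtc
Ccl21d: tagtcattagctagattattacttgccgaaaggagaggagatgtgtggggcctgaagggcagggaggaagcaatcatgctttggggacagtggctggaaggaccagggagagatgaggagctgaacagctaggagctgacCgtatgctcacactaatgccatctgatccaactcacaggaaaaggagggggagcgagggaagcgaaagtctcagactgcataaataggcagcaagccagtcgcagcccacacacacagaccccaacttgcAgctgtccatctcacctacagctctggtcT
These windows shared 297 identical bases, with 2 mismatches and 2 gap positions. The listed Ccl21b window shared 158 bases with that of Ccl21a. Fam205a1 and its copy Fam205a2 shared 284 bases.

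In WT mice the 3 genes had different tissue orders. Values are log2 expression, on which 1 unit is a doubling, and the median of all values on the arrays was 4.07. In these bulk tissues, fewer cells of a type and less RNA per cell cannot be told apart. Neighbouring tissues in each order were compared with limma over the 40 WT arrays, with Benjamini-Hochberg adjustment over all probe sets and a threshold of 0.05. Between 47.2% and 72% of all probe sets were called in these comparisons, so a call alone is common.

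**Figure D1:**
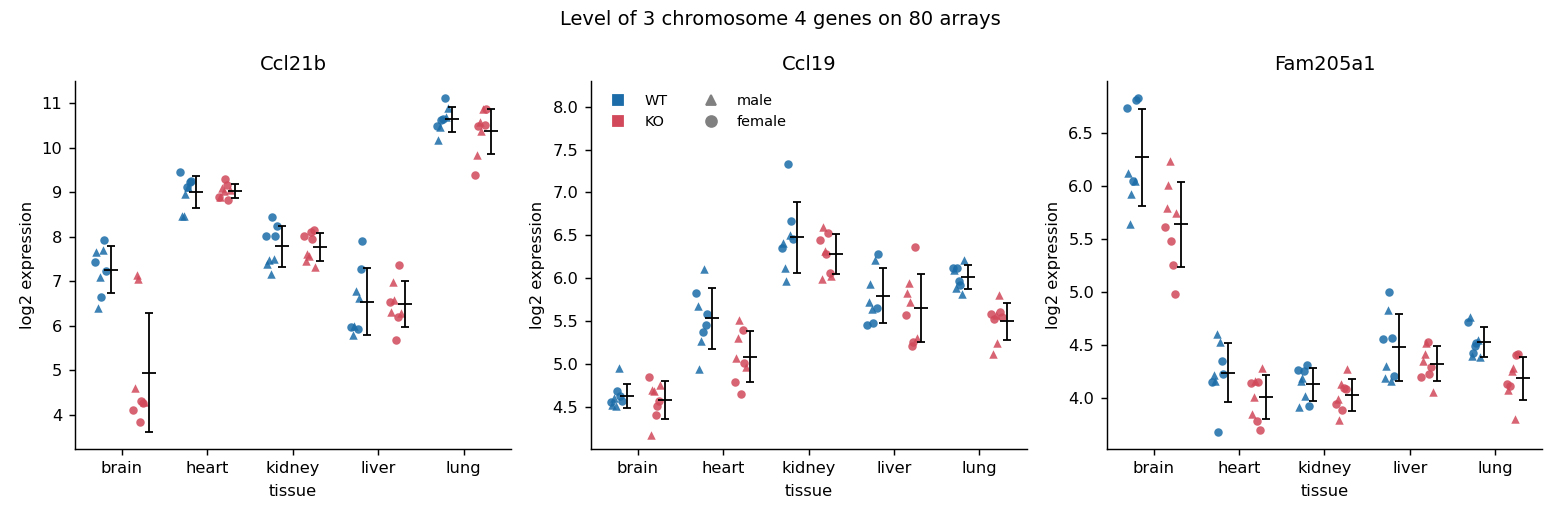
Level of each gene (log2 expression) by tissue, with WT arrays in blue, KO arrays in red, triangles for males and circles for females, 8 arrays per genotype and tissue; black bars are mean ± SD. In brain 6 of 8 KO arrays lie below every WT array for Ccl21b, and in lung all 8 KO arrays lie below every WT array for Ccl19.

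Ccl21b was highest in lung, at 10.64 ± 0.28 (SD, n = 8), with a lowest, median and highest array of 10.18, 10.63 and 11.12. It was 9.01 ± 0.37 in heart, from 8.46 through a median of 9.12 to 9.46. It stood at 7.78 ± 0.46 in kidney, with 7.16, 7.76 and 8.45 as lowest, median and highest. Every lung array thus lay above every heart array, and every heart array above every kidney array. The latter gap was narrow, with the lowest heart array at 8.457 and the highest kidney array at 8.447. The share of all probe sets that separate tissues in this way was not computed. In brain Ccl21b was 7.26 ± 0.53, with 6.41, 7.33 and 7.93 as lowest, median and highest. In liver it was 6.54 ± 0.75, with 5.80, 6.31 and 7.90. Kidney, brain and liver overlapped.

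Each step in this order was called. Lung exceeded heart by 1.63 (SE 0.22, limma adjusted p = 5.17e-08, 60.7% of probe sets called). Heart exceeded kidney by 1.23 (SE 0.22, limma adjusted p = 1.16e-05, 47.2% called). The 2 remaining steps were less firm. Kidney exceeded brain by 0.52 (SE 0.22, limma adjusted p = 0.044, 56.6% called), a call that was lost without any 1 of WT animals 902, 903, 936 and 1265, where the difference was 0.36, 0.53, 0.36 and 0.49. Brain exceeded liver by 0.73 (SE 0.22, limma adjusted p = 0.0039, 72% called), which fell to 0.43 and was no longer called after renewed quantile normalisation (limma adjusted p = 0.0798). Among KO arrays that last difference had the opposite sign, -1.54.

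Ccl19 varied less between tissues. In WT kidney it was 6.48 ± 0.41 (SD, n = 8; lowest 5.97, median 6.44, highest 7.34). In lung it was 6.02 ± 0.14 (5.81, 6.03 and 6.22). In liver it was 5.80 ± 0.32 (5.45, 5.69 and 6.29). These 3 tissues overlapped. In heart Ccl19 was 5.53 ± 0.36 (4.95, 5.52 and 6.11). In brain it was 4.63 ± 0.14 (4.51, 4.59 and 4.95), so the highest brain array lay just above the lowest heart array. The step from kidney to lung was called, at 0.46 (SE 0.14, limma adjusted p = 0.0057, 53.4% of probe sets called), and so was the step from heart to brain, at 0.90 (SE 0.14, limma adjusted p = 6.71e-07, 60.9% called). Lung and liver differed by 0.22 (limma adjusted p = 0.157, 71.6% called) and liver and heart by 0.27 (limma adjusted p = 0.111, 54.1% called), neither of which passed the threshold.

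Fam205a1 stood apart from the chemokines in being highest in brain, at 6.27 ± 0.46 (SD, n = 8; lowest 5.64, median 6.09, highest 6.83). Its WT lung level was 4.53 ± 0.14 (4.38, 4.51 and 4.76). In liver it was 4.48 ± 0.32 (4.16, 4.43 and 5.002). Every brain array lay above every array of these tissues, a separation whose share over all probe sets was not computed. In heart it was 4.24 ± 0.28 (3.68, 4.22 and 4.60). In kidney it was 4.13 ± 0.16 (3.92, 4.18 and 4.31), near the median of all values. Brain exceeded lung by 1.74 (SE 0.12, limma adjusted p = 1.92e-15, 59.7% of probe sets called), while no step among lung, liver, heart and kidney passed (differences of 0.05, 0.24 and 0.11). Tissues further apart in this order did pass. Lung exceeded kidney by 0.40 (limma adjusted p = 0.0048, 53.4% called) and heart by 0.29 (limma adjusted p = 0.036, 60.7% called). Liver exceeded kidney by 0.35 (limma adjusted p = 0.015, share called not given here).

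KO and WT levels are given as a description without a test, since the genes were picked on this contrast. Ccl21b in brain was the member with the widest gap between the genotypes. Its KO brain values had a lowest, median and highest array of 3.85, 4.30 and 7.14, against 6.41, 7.33 and 7.93 in WT. The KO arrays fell into separate levels: 6 lay between 3.85 and 4.60, near the median of all values, and KO males 962 and 964 lay at 7.14 and 7.04, inside the WT range. KO minus WT was -2.32, with means of 4.95 ± 1.34 (SD, n = 8) in KO and 7.26 ± 0.53 in WT, the lowest of all 45037 probe sets. Over all probe sets 0.00222% were called for KO against WT in brain, and for 0.00666% all KO arrays lay below all WT arrays. Ccl21b is not among the latter, with 6 of 8 KO arrays below all WT arrays, and the share with such a count was not computed. Whether it is among those called is not given, as it was not tested.

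The split among KO brains lay within the males. In KO females the brain level of Ccl21b was 4.13 ± 0.21 (SD, n = 4), every array below every WT female, with KO minus WT at -3.17. The share of all probe sets that separate 4 from 4 arrays in this way was not computed. KO males averaged 5.76 ± 1.53 (n = 4), and KO minus WT in males was -1.46. The other KO males, 952 and 1259, stood at 4.60 and 4.29. Without the brains of 962 and 964, an alternative chosen after their values were seen, KO minus WT was -2.98.

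Fam205a1 in brain was lower on average in KO mice, at 5.64 ± 0.40 (SD, n = 8; lowest 4.99, median 5.68, highest 6.23) against 6.27 ± 0.46 in WT. The genotypes overlapped, and 4 of 8 KO arrays lay below all WT arrays, a count whose share over all probe sets was not computed. The difference of -0.63 was seen in females. KO females were at 5.33 ± 0.28 (n = 4) and WT females at 6.61 ± 0.37, a difference of -1.27 with no overlap. The share of all probe sets with no overlap between 4 and 4 arrays was not computed. In males KO minus WT was 0.01, with 5.95 ± 0.22 in KO and 5.94 ± 0.21 in WT. Whether the sexes differed in this was not tested.

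Ccl19 in brain showed no such gap. KO brains were at 4.58 ± 0.22 (SD, n = 8; lowest 4.17, median 4.63, highest 4.85) and WT brains at 4.63 ± 0.14, a difference of -0.05. Most KO arrays lay within the WT range.

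**Figure D2:**
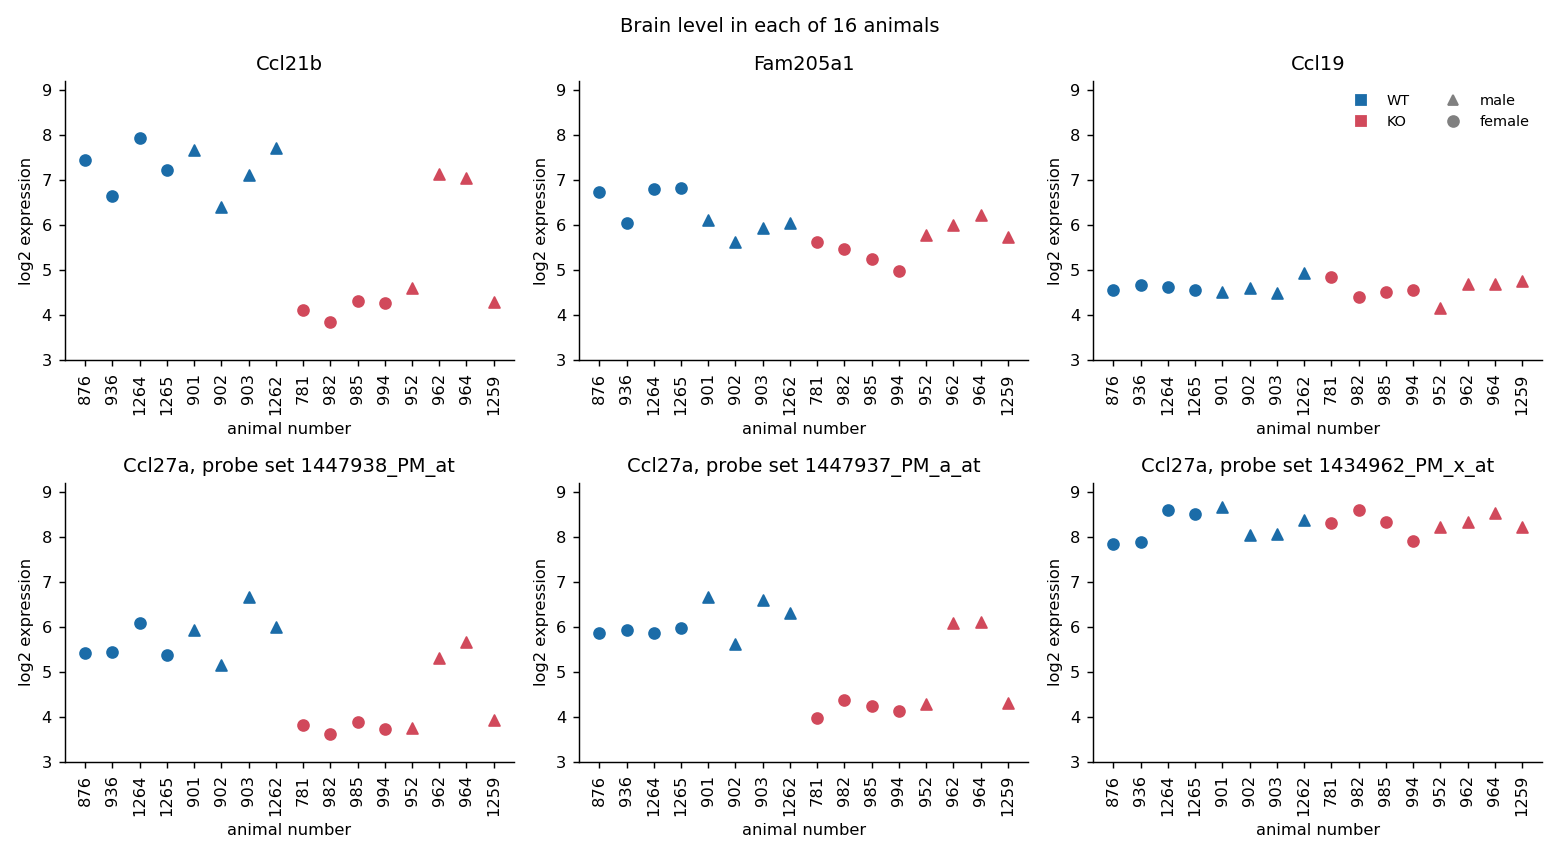
Brain level (log2 expression) of the 3 genes and of 3 of the 4 Ccl27a probe sets in each of 16 animals, identified by number on the horizontal axis; WT is blue, KO red, triangles are males and circles females. KO males 962 and 964 stand apart from the other 6 KO animals for Ccl21b and for the Ccl27a probe sets 1447938_PM_at and 1447937_PM_a_at.

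KO males 962 and 964 were then followed through the other genes and tissues by their single values. In brain their Fam205a1 levels, 6.01 and 6.23, were the highest among KO animals, the other 6 standing between 4.99 and 5.79. KO females stood between 4.99 and 5.62, so the lower end of that range comes from females. The other KO males, 952 and 1259, stood at 5.79 and 5.75, and WT males between 5.64 and 6.12. Their Ccl19 levels, 4.70 and 4.69, lay inside the range of the others, 4.17 to 4.85. Both animals lay above all other KO brains for 3.62% of all probe sets and below them for 3.81%. For Ccl21b this standing was fixed by the choice of these animals, so only Fam205a1 is to be read against those shares.

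In the other tissues neither animal stood apart for Ccl21b when set beside the other KO animals of both sexes. Their heart levels were 9.09 and 9.04, with the other KO hearts between 8.84 and 9.29. Their kidney levels were 7.61 and 7.56, within 7.33 to 8.15. KO female kidneys stood between 7.95 and 8.15, so the upper end of that range comes from females. Their liver levels, 6.99 and 6.58, lay within 5.68 to 7.36. For Ccl19 and Fam205a1, too, the pair was not jointly above or below the other KO arrays in heart, kidney or liver. Over all probe sets both lay above the others for 3.4% in heart, 9.55% in kidney and 4.05% in liver, and below for 3.61%, 1.84% and 3.22%. Neither animal gave lung. Among the 4 KO males alone, the pair held the highest Ccl21b levels in kidney and liver, but not in heart. In kidney these males had a lowest, median and highest array of 7.33, 7.51 and 7.61, and in liver 6.29, 6.44 and 6.99. The pair was also highest for Ccl19 in heart and kidney, but not liver, and for Fam205a1 in liver, but not heart or kidney. The share of all probe sets with this standing among KO males was not computed.

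A nearby chemokine gene, Ccl27a, had the brain pattern most like that of Ccl21b. Ccl27a encodes a ligand of the receptor CCR10 and its locus also has near-identical copies, as the starts of Ccl27a at chr4:41770163-41770462 (−) and Ccl27b at chr4:42655001-42655300 (+) show, with unmatched bases in capitals.
Ccl27a: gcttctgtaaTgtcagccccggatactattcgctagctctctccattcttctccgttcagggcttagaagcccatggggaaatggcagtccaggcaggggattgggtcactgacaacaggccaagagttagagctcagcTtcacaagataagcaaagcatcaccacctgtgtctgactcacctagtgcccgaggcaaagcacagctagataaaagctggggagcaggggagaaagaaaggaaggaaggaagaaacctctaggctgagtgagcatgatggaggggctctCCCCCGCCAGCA
Ccl27b: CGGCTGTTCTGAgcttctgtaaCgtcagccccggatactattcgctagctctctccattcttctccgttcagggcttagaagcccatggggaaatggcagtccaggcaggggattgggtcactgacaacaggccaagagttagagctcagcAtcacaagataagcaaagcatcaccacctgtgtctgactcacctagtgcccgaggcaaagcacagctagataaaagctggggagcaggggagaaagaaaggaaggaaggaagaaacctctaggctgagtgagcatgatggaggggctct
The pair shared 286 identical bases, with 2 mismatches and 24 gap positions, the gaps lying at the ends.

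Of the 4 Ccl27a probe sets, 1447937_PM_a_at and 1447938_PM_at followed Ccl21b over the 16 brain arrays, with Pearson's r of 0.954 and 0.947, given as a description because both were chosen for likeness. Probe set 1447937_PM_a_at stood between 3.97 and 4.38 in 6 KO brains, at 6.09 and 6.12 in KO males 962 and 964, and between 5.63 and 6.67 in WT brains. Probe set 1447938_PM_at stood between 3.63 and 3.93 in the same 6 KO brains, at 5.31 and 5.66 in 962 and 964, and between 5.16 and 6.67 in WT. The same 6 KO animals were thus low for Ccl21b and for both of these probe sets. KO minus WT in brain was -1.41 and -1.55. The other Ccl27a probe sets, 1419188_PM_s_at and 1434962_PM_x_at, were brighter in brain, and KO minus WT there was 0.01 and 0.06. Which of the gene's copies each probe set reads was not examined.

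Outside brain the pair of Ccl27a probe sets that follow Ccl21b differed most by genotype in lung, which neither 962 nor 964 gave. Probe set 1447937_PM_a_at stood between 3.55 and 4.13 in KO lungs and between 3.97 and 5.06 in WT lungs, with 7 of 8 KO arrays below all WT arrays and KO minus WT at -0.58. Probe set 1447938_PM_at stood between 2.88 and 3.51 in KO and between 3.38 and 3.75 in WT, again with 7 of 8 KO arrays below all WT arrays, and differed by -0.34. In liver 0 of 8 KO arrays of 1447937_PM_a_at and 3 of 8 of 1447938_PM_at lay below all WT arrays. In kidney these counts were 5 and 4, and in heart 3 and 2. Shares of all probe sets with such counts were not computed. KO males 962 and 964 were the highest KO arrays of 1447937_PM_a_at in liver (at least 4.11 against at most 3.79). They were also the highest KO arrays of 1447937_PM_a_at in kidney (at least 3.99 against at most 3.86) and of 1447938_PM_at in liver (at least 3.75 against at most 3.63). Such a joint standing was met by 9.55% of all probe sets in kidney and 4.05% in liver. In heart it was met by neither probe set. Most of these levels lie near or under the median of all values.

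In lung, Ccl19 was lower in every KO array. KO lungs had a lowest, median and highest array of 5.12, 5.56 and 5.81, and WT lungs 5.81, 6.03 and 6.22. The highest KO value, 5.806, lay just below the lowest WT value, 5.814. KO minus WT was -0.52, with means of 5.50 ± 0.22 (SD, n = 8) and 6.02 ± 0.14. All KO arrays lay below all WT arrays for 0.00888% of probe sets in lung, and 0.0111% were called. The difference was -0.57 in males and -0.47 in females. By plain means of the arrays, not balanced over the sexes, it was -0.70 among animals 781 to 994 (3 KO, 2 WT) and -0.43 among animals 1870 to 1960 (4 KO, 3 WT).

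Fam205a1 in lung was lower in KO as well, at 4.19 ± 0.20 (SD, n = 8; lowest 3.80, median 4.20, highest 4.41) against 4.53 ± 0.14. Of 8 KO arrays, 6 lay below all WT arrays, and the difference was -0.35. Ccl21b in lung was 10.37 ± 0.51 in KO (lowest 9.39, median 10.50, highest 10.87) and 10.64 ± 0.28 in WT, with 2 KO arrays below all WT arrays. Its difference of -0.27 was under the SD of the KO group. Shares of all probe sets with such counts of KO arrays below all WT arrays were not computed.

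In heart, Ccl19 was 5.09 ± 0.30 in KO (SD, n = 8; lowest 4.65, median 5.04, highest 5.51) and 5.53 ± 0.36 in WT. The groups overlapped and KO minus WT was -0.45. Fam205a1 differed by -0.23 in heart, and 0.00222% of probe sets were called there. Ccl21b in heart was almost level, at 9.03 ± 0.15 in KO and 9.01 ± 0.37 in WT. Its difference was 0.27 in males and -0.22 in females.

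In kidney KO minus WT was -0.01 for Ccl21b, -0.19 for Ccl19 and -0.10 for Fam205a1, with 0% of probe sets called. In liver it was -0.05, -0.15 and -0.15 in the same order, with 0.00666% called. All 6 differences were under the SD of the WT groups, and the genotypes overlapped for each gene.

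The low KO levels were set beside the other genes of this stretch of chromosome 4. Of the 50 measured genes nearest to the members, 25 on each side, 0 were called for KO against WT by limma in any tissue (unadjusted p under 0.05 for 3 in lung, 2 in brain and 1 in each other tissue), each gene read by its brightest probe set. Over all probe sets the shares at an unadjusted p under 0.05 were 5.11% in lung, 7.08% in brain, 4.18% in heart, 3.38% in kidney and 3.44% in liver, so the neighbours' counts are near the background. In brain their differences ran from -0.19 (Nol6, a nucleolar protein gene) to 0.23 (Car9, a carbonic anhydrase), with a median of 0.01. The next by size were Phf24 at 0.19, Dnajb5 at 0.18 and Dcaf12 at 0.17. Across all 85 probe sets of these genes, only the 2 Ccl27a probe sets described above lay below -0.5 in brain, against 37 of all 45037 probe sets. Neither was called (limma adjusted p = 0.187 for 1447937_PM_a_at and 0.184 for 1447938_PM_at). Both had been named for likeness to Ccl21b, and the 37 include Ccl21b and Fam205a1, so these counts are no test. Without Ccl27a the 81 others ran from -0.27 to 0.62.

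**Figure D3:**
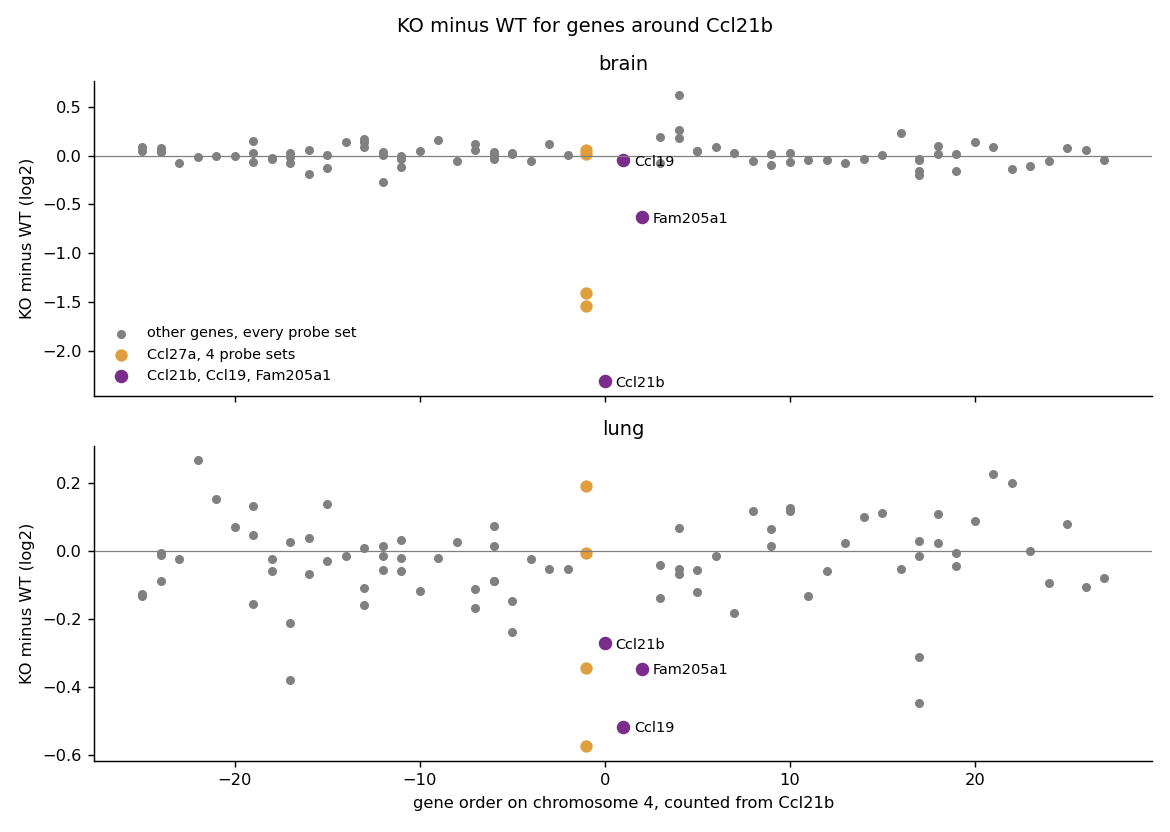
KO minus WT (log2) in brain and in lung for Ccl21b, Ccl19 and Fam205a1 (purple), the 4 Ccl27a probe sets (orange) and every probe set of the other neighbouring genes (grey), by measured gene order counted from Ccl21b. In brain Ccl21b and a pair of Ccl27a probe sets lie below -1.

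KO males 962 and 964 were jointly above the other KO brains for 1 of these 50 genes, Unc13b, and jointly below for 3, B4galt1, Galt and Phf24, with each gene read by its brightest probe set, which for Ccl27a is neither of the pair that follow Ccl21b. These shares are near those over all probe sets.

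The sexes differed in Ccl21b in kidney, a comparison that the choice of genes did not use. Male kidneys had a lowest, median and highest array of 7.16, 7.48 and 7.61, and female kidneys 7.95, 8.07 and 8.45, so every male lay below every female. Females were 1.61-fold higher, male minus female being -0.68 (SE 0.075, limma adjusted p = 8.93e-06, n = 8 per sex). With the animal as a block in 1 fit of all 80 arrays, the difference was -0.69 and the call was lost (limma adjusted p = 0.084). That fit also shares 1 variance over the 5 tissues, and the effects of block and shared variance were not separated. Sex differences were common in kidney: 13% of probe sets were called, 6.74% as higher in females, and for 1.43% all males lay below all females.

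**Figure D4:**
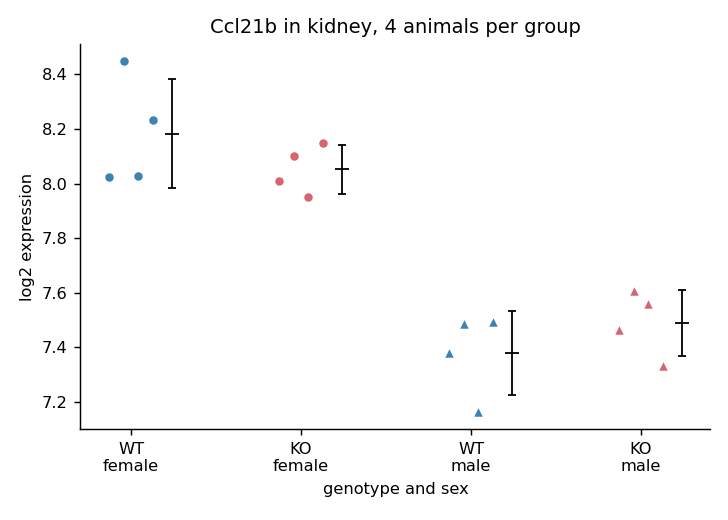
Ccl21b level (log2 expression) in kidney by genotype and sex, 4 animals per group, WT in blue and KO in red; black bars are mean ± SD. All 8 female arrays lie between 7.95 and 8.45 and all 8 male arrays between 7.16 and 7.61, in both genotypes.

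The difference held within each genotype by value. WT males were at 7.38 ± 0.15 (SD, n = 4) and WT females at 8.18 ± 0.20. KO males were at 7.49 ± 0.12 and KO females at 8.05 ± 0.09. None of the other 14 comparisons of males with females over the 3 genes and 5 tissues passed, with 2.68% of probe sets called in liver and 0.0511% in lung. Ccl21b differed by -0.27 in heart (limma adjusted p = 0.427, 0.135% of probe sets called) and by 0.77 in brain (limma adjusted p = 0.448, 0.28% called). The brain value moved to 0.11 without 962 and 964. Ccl19 differed by -0.27 in kidney (limma adjusted p = 0.224).

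The CCR7 list was mostly out of reach. Of its 6 genes, 3 had a probe set that names 1 gene: Ccl21b, Ccl19 and Ackr4, a scavenging receptor for these chemokines. Ackr4 was near the lower end of the scale in brain, at 3.41 ± 0.18 (SD, n = 8) in KO and 3.37 ± 0.14 in WT. It was not called in any tissue, with differences from -0.19 in lung to 0.04 in brain. Of 33 other chemokine genes, 0 were called by limma in any tissue (unadjusted p under 0.05 for 5 in heart, 3 in liver, 2 in kidney and 0 in brain and lung, against 4.18%, 3.44%, 3.38%, 7.08% and 5.11% of all probe sets in the same order). Each gene was read by its brightest probe set. The brain median of these genes was 0.01, against 0.00 over all probe sets, the widest brain difference being 0.26. Ccl27a is in this list, and its probe sets 1447937_PM_a_at and 1447938_PM_at, at -1.41 and -1.55 in brain, are not counted. Named by smallest p in brain, Cxcl14 differed by 0.17 and Xcl1 by -0.14.

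Among 16 other chemokine receptors 0 were called by limma in any tissue (unadjusted p under 0.05 for 2 in kidney, 2 in lung and 1 in each other tissue), with a brain median of -0.03; Cxcr2 differed by -0.19 and Ccr3 by -0.11. Among 14 genes of lymphoid tissue organisation 0 were called by limma in any tissue (unadjusted p under 0.05 for 1 in heart, 1 in lung and 0 in the others), with a brain median of -0.01; Relb differed by 0.23 and Nfkb2 by -0.17.

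Markers of cells that make or follow these chemokines were given beside the low Ccl21b in KO brain. Lymphatic endothelium markers (6 of 6 measured) had a brain median difference of 0.00, with mean levels of 5.53 to 5.75 in KO and 5.52 to 5.84 in WT. That level was carried by Reln (9.44 in KO, 9.59 in WT), Pdpn (6.68 and 6.64) and Prox1 (5.96 and 6.19). Lyve1, Flt4 and Mmrn1 stood near or under the median of all values, so the amount of these cells cannot be read from it. T cell markers (11 of 15 measured) stood at 3.54 to 3.72 in KO and 3.58 to 3.69 in WT, and mature dendritic cell markers (9 of 9) at 5.78 to 5.91 and 5.70 to 5.92. These ranges overlapped nearly in full. The T cell means lay under the median of all values, and which genes carry the dendritic cell mean was not examined. The amounts of these cells cannot be read from these ranges.

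Of the neutrophil markers in brain, 6 of 6 had a lower mean in KO, with a median of -0.22, 3 at an unadjusted p under 0.05 and 0 called by limma. Over all probe sets in brain 49.2% had a lower mean in KO and 7.08% had an unadjusted p under 0.05. S100a9, a calcium-binding protein of neutrophils, differed by -0.77 (limma adjusted p = 0.409) and S100a8 by -0.44 (limma adjusted p = 0.559). Their mean level was 3.52 to 4.11 in KO and 3.68 to 4.38 in WT. Choroid plexus markers had a median of 0.32, with 7.07 to 7.70 in KO and 5.96 to 8.06 in WT. Meninges markers stood at 6.63 to 7.15 in KO and 6.67 to 7.03 in WT. Of these, Foxc2 had the smallest p in brain and differed by 0.36 (limma adjusted p = 0.395). The other meninges markers differed by -0.08 (Slc6a13) to 0.14 (Aldh1a2). The part of these cells in the Ccl21b values was not tested.

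In lung, beside the low Ccl19, T cell markers had a median difference of -0.11 (9 of 11 lower, 2 at an unadjusted p under 0.05, 0 called by limma), with levels of 3.63 to 4.47 in KO and 4.09 to 4.62 in WT. Over all probe sets in lung 51.1% had a lower mean in KO and 5.11% had an unadjusted p under 0.05. Mature dendritic cell markers had a median of -0.07, with 5.98 to 6.71 in KO and 6.41 to 6.75 in WT. Their part in the Ccl19 values was not tested.

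The genes most like each member were found over the 80 arrays after each tissue's mean was subtracted, as a description in which arrays of 1 animal and genotype differences are shared. For Ccl21b these were the Ccl27a probe sets 1447938_PM_at (r = 0.792) and 1447937_PM_a_at (r = 0.654), then Fam205a1 (r = 0.510). For Fam205a1 they were the same Ccl27a probe sets (r = 0.566 for 1447937_PM_a_at and 0.533 for 1447938_PM_at) and Ccl21b. Ccl19 was less like its neighbours, with r of 0.293 to Ccl21b and 0.159 to Fam205a1. Its nearest were Mir670hg (r = 0.533), Eda (r = 0.532) and Slamf9 (r = 0.527).

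The most opposed were Sult2b1, Epha6 and Mchr1 for Ccl21b (r from -0.538 to -0.490), Zfp36l1, Foxk1 and Hivep2 for Ccl19 (-0.529 to -0.502) and Map4k4, Zfp292 and Msi1 for Fam205a1 (-0.520 to -0.467). Over the 16 brain arrays alone, the third gene after the Ccl27a probe sets was Pcdhb13 (r = 0.865), a dim probe set at a mean of 3.18, and the most opposed were Cdr2 (r = -0.862), Gspt1 (r = -0.840) and A730056A06Rik (r = -0.839). Fam205a1 had r of 0.788 with Ccl21b in brain and Ccl19 0.253. With most points at separate KO and WT levels, these brain values mainly restate that split.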

How the data were processed

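Each deposited value is the log2 expression of a probe set, which the authors normalised with RMA before deposit; Affymetrix Expression Console, RMA and Partek are named per the submitters' processing notes, without versions. Whether all tissues were normalised together and which genome build was used are not given in the sources used here. Of 45141 probe sets, 104 controls were left out; 28898 name 1 gene. Sample titles gave the genotype, sex, tissue and animal of each array.

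The values were fitted with limma 3.58.1 (lmFit, eBayes) in R 4.3.3, per tissue for KO against WT and for male against female, and over the 40 WT arrays for tissues, with group means and Benjamini-Hochberg adjustment over all probe sets. The fits were tested on simulated data. Deviations from group means of arrays that share an animal correlated at a median of 0.0895 over 132 pairs, against -0.0072 over 2428 other pairs, and a fit with the animal, numbered in the titles, as a block was an alternative. For KO against WT and for the sexes, that fit took all 80 arrays at once, with a variance shared over tissues. Other alternatives were median centring, renewed quantile normalisation, bright probe sets, 1 probe set per gene, a trend with a robust prior, subsets of animals and leaving out each array in turn.

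The members and lists were chosen with earlier results of these data known. Named were the 5 neighbours with the widest brain difference, the 3 probe sets most like and most opposed to each member and, for the chemokine lists, the 2 with the smallest p in brain; other list genes, and the Ccl27a probe sets in other tissues, were named after their values were seen. Animals 962 and 964 were chosen by their brain level and are given as single values. Promoter sequences and gene order are from RefSeq, GRCm38.p6.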

Additional observations from a re-analysis of the deposited data

Results flagged for a closer look

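Of 60 groups of 4 arrays (3 genes, 5 tissues, 2 genotypes and 2 sexes), 3 held an array far from the others by Dixon's criterion, which chance alone meets in about 1 group in 20. Ccl19 in brain of KO male 952 was 4.1686, with the other KO males between 4.69 and 4.76. Fam205a1 in brain of WT female 936 was 6.0513, with the other WT females between 6.74 and 6.83. Fam205a1 in kidney of WT female 1265 was 3.9211, with the others between 4.26 and 4.31. The KO male brains split by Ccl21b into a higher and a lower pair, which this criterion does not register.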

How the results depend on the processing

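Of the values for the 3 genes, 372 of 378 alternatives for KO against WT, 362 of 363 for male against female and 204 of 216 for tissues kept their direction and side of the threshold or moved by less than 1 SD. Fam205a1 in brain was 0.011 in males alone and -1.27 in females alone, and Ccl21b in heart 0.27 and -0.22. Among animals 781 to 994 alone, lung KO minus WT averaged over the sexes was -0.77 for Ccl19 (the plain difference of means was -0.70) and -0.64 for Fam205a1. With the animal as a replicate block over all 80 arrays, the kidney sex difference of Ccl21b was -0.69 (limma adjusted p = 0.084). In the tests of the sexes and of neighbouring tissues, the block changed no other call for these genes. KO against WT was not tested for them, so no such call is compared. Unlike the main fits by tissue, the fit over 80 arrays also shares 1 variance per probe set over the 5 tissues. What the block and the shared variance each changed was not separated. That fit raised KO against WT counts over all probe sets from 1 to 61 in brain and 1 to 5 in heart. They rose from 0 to 5 in kidney, 3 to 21 in liver and 5 to 20 in lung. Sex counts rose from 126 to 215 in brain and 61 to 190 in heart. They rose from 1205 to 5148 in liver and 23 to 52 in lung, while the kidney sex count fell from 5876 to 4617. In WT, Ccl21b in kidney minus brain was 0.52 with a trend and robust prior, no longer called, and ran from 0.36 to 0.65 without 1 animal. Ccl21b in brain minus liver was 0.43 after renewed quantile normalisation, not called, and -1.54 in KO arrays. Ccl19 in liver minus heart was called at 0.49 after quantile normalisation and 0.56 in KO arrays, and Fam205a1 at 0.33 and 0.31; without 1 animal the latter ran from 0.10 to 0.32. The cause of these changes was not tested. In subsets the brain KO count ran from 0 to 6, being 5 without 962, 6 without 964 and 6 without both; the kidney sex count was 3701 with 1 probe set per gene, 2306 in WT and 1581 in KO. Median shifts reached 0.19 between tissues under median centring. Levels near the median of all values, such as Fam205a1 outside brain, carry little signal over background.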
